A study of Vitis vinifera with 40 samples.

Results

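Somatic embryogenesis is the formation of embryos from body cells, here from anthers with their filaments of the grapevine Vitis vinifera cultivar Malvasia Istriana. The comparison described here sets the first sampled stage, early induction (EI), against the last, the juvenile plant (JP). Its members were taken from the labels alone, as the 3 EI and the 3 JP libraries, which are 6 of the 40 RNA-seq libraries of the series. The series samples 12 stages: early induction, preglobular (PG), globular (G1, G2), heart (H), torpedo (T1, T2) and cotyledonary (C1, C2) embryos, then the seedling (S), the seedling that has formed an epicotyl (EP), and JP. EI material was kept in constant dark on medium with auxin, and by the study's methods it consisted of single cells and small clusters, obtained by agitating proembryogenic masses from filament tips in liquid medium and sieving. Only EI samples whose recultured cells went on to form embryos were kept, so that EI stands for competent cultures. The induction medium also held the cytokinin benzyladenine beside 2 synthetic auxins. JP material was grown in long days on medium with gibberellin, to which by the methods the auxin indole-3-acetic acid was added, and had passed through hormone-free medium before. All stages come from 1 cultivar, many individuals were pooled for each library, and the labels name the tissue of JP as somatic embryos too. Stage, tissue, hormones, light and culture time therefore cannot be told apart in this comparison, and in bulk RNA fewer cells of a type and less RNA per cell cannot be told apart.

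Embryogenic induction is known as a phase in which auxin and cytokinin drive somatic cells back into division and embryonic identity, commonly without green plastids when cultures are held in the dark. A juvenile plant has roots, a shoot and leaves that carry out photosynthesis, so that light harvesting, plastid metabolism, vascular transport and leaf secondary metabolism are active. Gibberellin promotes stem growth through the breakdown of DELLA proteins, and abscisic acid is the hormone of water shortage and dormancy.

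The EI libraries held 17246233, 19559381 and 18110242 counts, and the JP libraries 33783101, 20209784 and 28055336. Replicate 1 of EI stood apart from the other EI libraries, with Pearson correlations of 0.953 and 0.975 across genes in log2 CPM (counts scaled to a common library size), against 0.993 between replicates 2 and 3. Among the JP libraries these correlations were 0.982 to 0.994. Levels below are normalised CPM, that is CPM after scaling by TMM factors, which assume that most genes do not change. The TMM factors were 1.335 to 1.497 in EI and 0.614 to 0.795 in JP, and they placed the median log2 fold change of all genes tested at -0.15. Scaling by total counts alone placed the same median at -1.14, so that changes smaller than about this shift depend on the scaling, and changes of gene lists are read against the median of all genes.

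The composition of the RNA differed between the stages. In EI, the 5 most abundant genes held 6.97%, 17.8% and 14.9% of the counts of replicates 1, 2 and 3. In JP, they held 45.0%, 38.5% and 35.5%. Of the counts, 50% lay in 1506, 740 and 943 genes in the EI libraries but in 11, 42 and 70 genes in the JP libraries. A single gene without a name in the sources used here, VIT_13s0019g02630, took 31.7%, 25.4% and 24.2% of the counts in JP and 0.321%, 0.545% and 0.501% in EI, a log2 fold change of 6.89 (standard error, SE, 1.25, adjusted p = 0.00252, from the quasi-likelihood test of edgeR, adjusted over all genes tested by Benjamini-Hochberg). VIT_07s0031g01060 followed the same direction, from 0.325%, 0.577% and 0.536% in EI to 5.26%, 3.17% and 3.59% in JP (log2 fold change 4.07, SE 0.683, edgeR adjusted p = 0.00173). The most abundant gene of EI, VIT_10s0003g04500, held 3.72%, 10% and 8.21% there and 3.37%, 4.34% and 3.35% in JP. The libraries of the stages overlapped for this gene, which did not pass the test (log2 fold change -0.03, SE 0.699). Replicate 1 of EI had the lowest share of the 3 EI libraries for each of these genes.

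**Figure D1:**
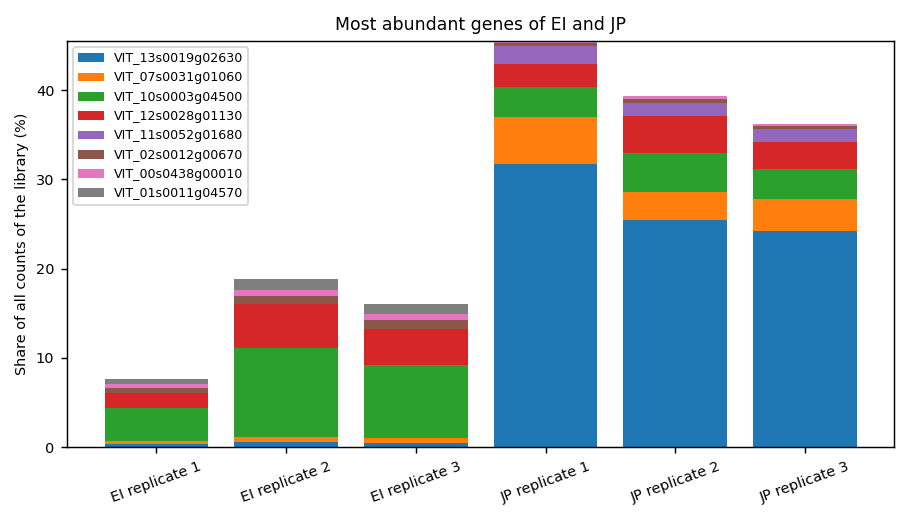
Shares of all counts (vertical axis, %) taken in each of the 6 libraries by the genes that are among the 5 most abundant of EI or of JP, stacked by gene. VIT_13s0019g02630 fills 24.2% to 31.7% of the JP libraries and at most 0.545% of the EI libraries.

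Most genes with enough counts differed between the first and the last stage. Of 22019 genes tested, 13330 (60.5%) passed an adjusted p of 0.05 in edgeR's quasi-likelihood test, of which 6504 (29.5% of those tested) were higher and 6826 (31% of those tested) lower in JP. Above a fold change of 2 there were 10125 genes (46%), with 5580 (25.3%) higher and 4545 (20.6%) lower. The median log2 fold change was 2.41 over the genes called higher and -1.30 over those called lower. Which direction had the larger changes followed the scaling, since with total counts alone the median differences in log2 level of these genes between JP and EI were 1.43 and -2.20. Relative to the median of all genes they were 2.51 and -1.13 with TMM factors and 2.52 and -1.11 with total counts. Beyond 32-fold lay 1313 genes that were higher and 372 that were lower in JP. The split of calls followed the scaling too: 48.8% of the calls were higher in JP with TMM factors, 54.0% with DESeq2, and 23.3% with total counts alone, where 4098 genes were higher and 13485 lower. Since most genes tested were called, the assumption behind the TMM factors is in doubt here. Of the 13330 genes, 10924 were called in the same direction with total counts and 19 in the opposite direction. Without replicate 1 of EI, 15409 genes were called, and 12953 of the 13330 kept their call.

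**Figure D2:**
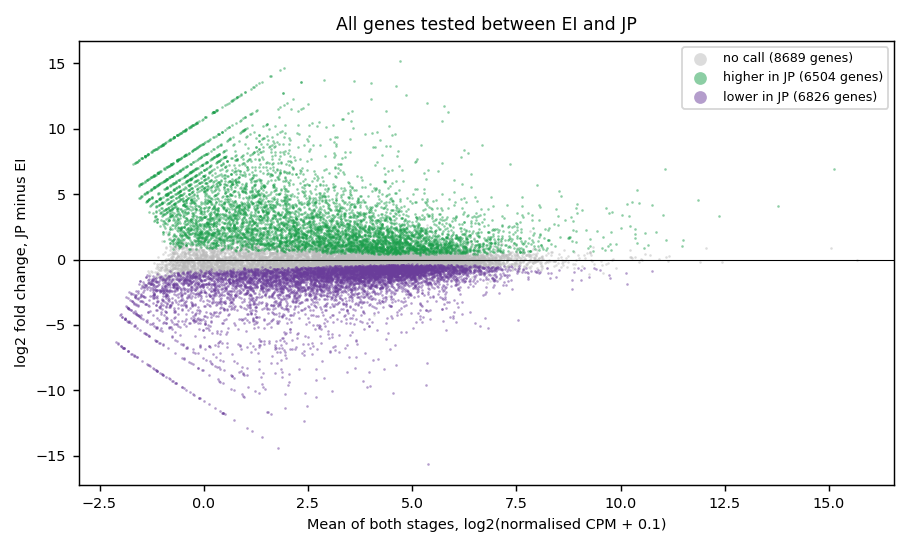
Log2 fold change between JP and EI (vertical axis) against the mean log2 level of both stages (horizontal axis, normalised CPM plus 0.1) for the 22019 genes tested. With TMM factors the median log2 fold change was 2.41 over the 6504 genes higher in JP and -1.3 over the 6826 genes lower in JP. The straight lines of points at the left are genes with few or no counts in one stage.

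The genes with the largest changes moved from near absence to abundance or back. VIT_01s0011g04570 had 3888, 9935 and 8353 normalised CPM in EI and 0.337, 0.0671 and 0 in JP, a log2 fold change of -15.66 (SE 1.04, edgeR adjusted p = 2.78e-05). In EI it was the third most abundant gene, at 0.582% to 1.33% of the counts. VIT_06s0004g05180 had 0.116, 0.153 and 0 normalised CPM in EI and 4354, 2169 and 4215 in JP, a log2 fold change of 15.18 (SE 0.803, edgeR adjusted p = 1.36e-05). Neither gene has a name or a function in the sources used here.

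Some genes were counted at one end only. No count in any EI library was seen for 647 genes with counts in JP, of which 43 reached a mean of 10 normalised CPM. No count in any JP library was seen for 1594 genes with counts in EI, of which 13 reached this level. In all, 29103 genes had a count in the 6 libraries. Of the 647 genes, 151 had enough counts for the test, and of the 1594 genes, 70 had. The product of total count and TMM factor was lower in every JP library than in every EI library. A count of 0 therefore excludes less in JP, and these numbers do not show that more genes were switched off there. The largest of the first class were VIT_01s0011g02720, with 154.8, 132.4 and 144.2 normalised CPM in JP, and VIT_11s0118g00780, annotated with ubiquitin-protein transferase activity, with 116.2, 131.6 and 133.5. Against the 3 counts that a sum of 0 over the EI libraries allows, they were at least 3724-fold and at least 3259-fold higher in JP. The largest of the second class was VIT_18s0089g00950, with 51.1, 169.2 and 139.1 normalised CPM in EI, which was at least 2315-fold lower in JP. These limits cover counting error only.

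A symbol could be given to 45 genes, those that the supplementary tables at hand pair with one, and 44 of them had enough counts for the test. Of these, 17 were higher in JP, 12 were lower and 15 did not pass. The shares of 38.6% and 27.3% stand beside 29.5% and 31% over all genes tested. The median log2 fold change of the 44 genes was 0.17, beside -0.155 over all genes tested. Of the 29 called genes, 29 kept their call without replicate 1 of EI, 23 in every one of the 6 fits that left out 1 library, and 23 with total counts alone.

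**Figure D3:**
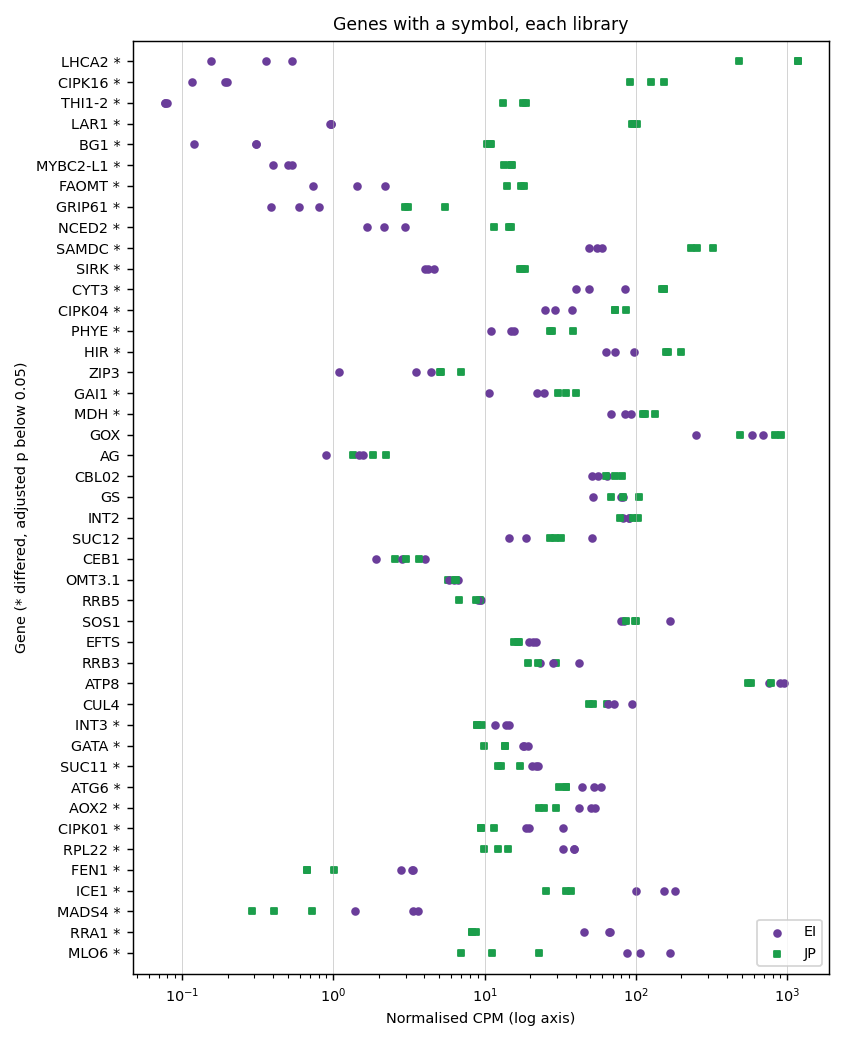
Normalised CPM (horizontal axis, log scale) of the 44 tested genes with a symbol in each EI library (circles) and each JP library (squares), ordered by fold change, with a star at the genes that passed the test. LHCA2 lies between 0.155 and 0.536 in EI and between 484 and 1174 in JP at one end, and MLO6 stands at the other with 87.8 to 167.5 in EI and 6.94 to 22.7 in JP.

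Of the 6 tested genes of light use and carbon metabolism, 4 (66.7%) were higher in JP, beside 29.5% over all genes tested, and 2 did not pass. Their median log2 fold change was 0.86, and their range included the largest rise of all symbols. LHCA2, a chlorophyll-binding protein of the photosystem I antenna that marks green tissue, had 0.155, 0.536 and 0.358 normalised CPM in EI and 1173, 484 and 1174 in JP. This is a log2 fold change of 11.37 (SE 0.665, edgeR adjusted p = 1.76e-05), and the lowest JP library was replicate 2. THI1-2, named for the plastid enzyme that makes the thiazole part of vitamin B1, rose from 0.0774, 0.0766 and 0.0796 to 18.7, 13.2 and 17.8 normalised CPM. Its log2 fold change was 7.63 (edgeR adjusted p = 7.97e-06). The phytochrome gene PHYE, whose product senses red light, had 10.96, 15.6 and 14.96 normalised CPM in EI and 38.4, 26.96 and 27.98 in JP, with a log2 fold change of 1.17 that was 0.18, without a call, with total counts. MDH, a malate dehydrogenase, changed by 0.55 on the log2 scale (edgeR adjusted p = 0.0314), but this call was lost without replicate 3 of EI, replicate 2 of JP or replicate 3 of JP, and the value was -0.41 with total counts. GOX, the glycolate oxidase of photorespiration, ranged from 251.3 to 695 in EI and from 484 to 904 in JP, so that the stages overlapped, and it did not pass, as did not GS.

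Of the 4 tested genes of flavonoid and phenolic metabolism, 3 (75%) were higher in JP, beside 29.5% over all genes tested, and 1 did not pass. Their median log2 fold change was 4.2. LAR1, a leucoanthocyanidin reductase that makes catechin units of tannins, had 0.968, 0.957 and 0.955 normalised CPM in EI and 97.6, 94.3 and 101.7 in JP. Its log2 fold change of 6.66 (SE 0.177, edgeR adjusted p = 5.84e-06) came with close replicates at both ends. MYBC2-L1, an R2R3-MYB repressor of the flavonoid pathway, had 0.503, 0.536 and 0.398 normalised CPM in EI and 15.1, 13.5 and 14.8 in JP, and FAOMT, an O-methyltransferase of anthocyanins, had 0.736, 2.18 and 1.43 in EI and 18.1, 14.01 and 17.4 in JP. The log2 fold changes of these 2 genes were 4.90 and 3.50, with edgeR adjusted p of 1.05e-05 and 0.000229. The fourth gene, the O-methyltransferase OMT3.1, stayed at 5.81 to 6.62 in EI and 5.73 to 6.44 in JP and did not pass (log2 fold change -0.02).

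Of the 5 hormone genes with a symbol, 1 of 3 cytokinin response regulators (33.3%) was lower in JP, beside 31% over all genes tested. The 1 gene each of abscisic acid synthesis and gibberellin signalling was higher. RRA1, a type-A response regulator of the kind that cytokinin induces, had 45.0, 67.3 and 66.0 normalised CPM in EI and 8.29, 8.72 and 8.30 in JP, a log2 fold change of -2.82 (SE 0.207, edgeR adjusted p = 3.96e-05). The type-B regulators RRB3 and RRB5, which activate transcription in the same pathway, overlapped between the stages and did not pass, with log2 fold changes of -0.39 and -0.17. NCED2, of the family of enzymes that commit carotenoids to abscisic acid, rose from 1.67, 2.99 and 2.15 to 15.03, 11.6 and 14.4 normalised CPM (log2 fold change 2.59, edgeR adjusted p = 0.000185). GAI1, a DELLA repressor of gibberellin responses, had 10.7, 24.8 and 22.3 in EI and 34.5, 30.4 and 39.9 in JP. Its log2 fold change of 0.86 lay just past the threshold (edgeR adjusted p = 0.0474). The call was lost without replicate 3 of EI and without each of the JP libraries, and with total counts the value was -0.09.

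Among the 4 tested calcium-sensing genes, 2 (50%) were higher and 1 (25%) lower in JP, beside 29.5% and 31% over all genes tested. CIPK16, one of the protein kinases that calcineurin B-like calcium sensors bind, rose from 0.116, 0.192 and 0.199 normalised CPM to 152.5, 90.9 and 125.7, a log2 fold change of 9.46 (SE 0.353, edgeR adjusted p = 7.16e-06). Its relative CIPK04 had 37.7, 25.2 and 29.2 in EI and 72.3, 85.7 and 72.9 in JP (log2 fold change 1.33, edgeR adjusted p = 0.000936), and with total counts its value of 0.34 was not called. CIPK01 had 33.2, 18.9 and 19.5 in EI and 9.44, 11.5 and 9.51 in JP, a log2 fold change of -1.23 (edgeR adjusted p = 0.00516). The sensor CBL02 overlapped between the stages with a log2 fold change of 0.34 and did not pass, though it was called at 0.47 without replicate 1 of EI and at -0.63 with total counts.

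Of the 6 genes of stress responses, 2 (33.3%) were higher in JP and 3 (50%) lower, beside 29.5% and 31% over all genes tested. MLO6, of the MLO membrane protein family known for powdery mildew susceptibility, had 167.5, 87.8 and 105.9 normalised CPM in EI and 6.94, 22.7 and 11.1 in JP (log2 fold change -3.15, SE 0.48, edgeR adjusted p = 0.00107). ICE1, the transcription factor that starts the cold response in Arabidopsis, had 100.2, 179.9 and 152.6 in EI and 37.2, 25.6 and 34.3 in JP (log2 fold change -2.16, edgeR adjusted p = 0.000407). AOX2, an alternative oxidase of mitochondria, was lower in JP by a log2 fold change of -0.92. In the other direction, the potassium channel gene SIRK changed by 2.05, with 4.02 to 4.6 normalised CPM in EI and 17.03 to 18.5 in JP, and HIR, named for the hypersensitive reaction, by 1.14. HIR was not called with total counts, where its value was 0.16. SOS1, a sodium/proton exchanger, overlapped and did not pass, with 168.3 normalised CPM in replicate 1 of EI against 79.2 and 83.5 in the other EI libraries.

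With TMM factors, sugar and polyol transporters differed little. The sucrose transporter SUC11 had 21.7, 20.6 and 22.6 normalised CPM in EI and 12.3, 17.1 and 12.7 in JP (log2 fold change -0.63), and the inositol transporter INT3 had 11.7, 14.4 and 13.8 in EI and 8.91, 9.66 and 8.92 in JP (log2 fold change -0.54). Both passed narrowly, with edgeR adjusted p of 0.0207 and 0.0297. Either call was lost without replicate 2 of EI, without replicate 3 of EI, without replicate 1 of JP and without replicate 3 of JP, and that of INT3 also without replicate 2 of JP and with DESeq2. SUC12 and INT2 did not pass, and SUC12 was called higher, at 0.86, without replicate 1 of EI, which had 50.9 normalised CPM against 14.5 and 18.7 in the other EI libraries. With total counts SUC11 (-1.595), INT3 (-1.504) and INT2 (-0.90) were called lower and SUC12 (-0.94) was not called. The median of all genes was -1.14 in that scaling.

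Genes of growth and basic cell functions lay near the shares of all genes, with 4 (30.8%) higher, 4 (30.8%) lower and 5 without a call among 13. Over all genes tested 29.5% were higher and 31% lower. Higher in JP were BG1 (log2 fold change 5.42), GRIP61 (2.66), SAMDC (2.30) and CYT3 (1.39). SAMDC, an S-adenosylmethionine decarboxylase of polyamine synthesis, had 49.3, 59.9 and 55.0 normalised CPM in EI and 254.5, 232.9 and 324.3 in JP, while CYT3 was not called with total counts (0.39). Lower in JP were the flap endonuclease FEN1 of DNA replication (log2 fold change -1.998), the ribosomal protein gene RPL22 (-1.61), the autophagy gene ATG6 (-0.64) and GATA (-0.58). RPL22 had 38.68, 32.9 and 38.9 normalised CPM in EI and 14.2, 12.2 and 9.95 in JP. FEN1 was a gene of low level, with 2.79, 3.33 and 3.38 in EI and 1.01, 0.671 and 0.673 in JP. The calls of ATG6 and GATA were each lost without replicate 2 of EI, replicate 3 of EI or replicate 3 of JP, and that of GATA also without replicate 2 of JP. The genes without a call were ATP8, CEB1, CUL4, EFTS and ZIP3, with log2 fold changes from -0.48 to 0.94.

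The MADS-box genes, which specify organs of the flower from which the explants came, were low at both ends. AG, the organ identity gene of stamens and carpels, had 0.891, 1.57 and 1.47 normalised CPM in EI and 1.35, 2.21 and 1.84 in JP and did not pass. AP1 had at most 0.542 normalised CPM in any of the 6 libraries, too few counts for the test. MADS4 had 1.39, 3.60 and 3.38 in EI and 0.289, 0.402 and 0.717 in JP (log2 fold change -2.54, edgeR adjusted p = 0.0038). Named regulators of embryogenesis were not found in the shortened tables at hand, so that they were not analysed here and the embryogenic label of EI was not checked against them.

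Gene Ontology (GO) terms were at hand for 1075 genes, the first part of a longer table, and for 770 of these the list of terms is cut short, so that the 28 lists drawn from them are incomplete and are described by counts only. Several lists stood away from the shares of all genes tested, which were 29.5% higher and 31% lower in JP. The thylakoid list, the membranes of chloroplasts on which photosynthesis runs, had 17 of 23 tested members (73.9%) higher and 2 (8.7%) lower in JP, with a median log2 fold change of 0.99, or 1.14 above the median of all genes. Leaving out 1 library at a time gave 10 to 17 members higher, with 10 without replicate 3 of JP and 11 without replicate 1 of JP. With total counts its median was 0.00, which is 1.13 above the median of all genes, and 5 members were called higher and 5 lower.

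Within the thylakoid list, the largest rise was that of VIT_17s0000g06450, annotated as ribulose-phosphate 3-epimerase, an enzyme of the Calvin cycle. It had 16.2, 16.8 and 18.2 normalised CPM in EI and 450.1, 238.8 and 395.6 in JP, a log2 fold change of 4.40 (SE 0.291, edgeR adjusted p = 2.72e-05). VIT_18s0164g00030, annotated with photosynthetic electron transport, went from 2.05, 3.87 and 3.34 to 72.5, 32.3 and 63.8 normalised CPM (log2 fold change 4.18). In both genes replicate 2 of JP was the lowest JP library, as for LHCA2. The largest fall was that of VIT_00s0480g00030, with 57.8, 57.2 and 53.4 in EI and 3.13, 7.58 and 6.95 in JP (log2 fold change -3.26). The wider chloroplast list had 43 of 99 tested members (43.4%) higher and 20 (20.2%) lower, with a median of 0.40. With total counts the balance turned, with 20 members higher, 46 lower and a median of -0.56, which is 0.58 above that of all genes. Its extremes were VIT_09s0002g04020, annotated with water and ammonium transport, at a log2 fold change of 8.57, and VIT_19s0014g04690, annotated with responses to light and auxin and with camalexin synthesis, at -4.77. The latter held 311.8, 381.0 and 349.8 normalised CPM in EI and 13.2, 11.8 and 13.1 in JP. Without replicate 1 of EI the chloroplast counts were 48 and 23, and without replicate 3 of EI they were 35 and 12.

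**Figure D4:**
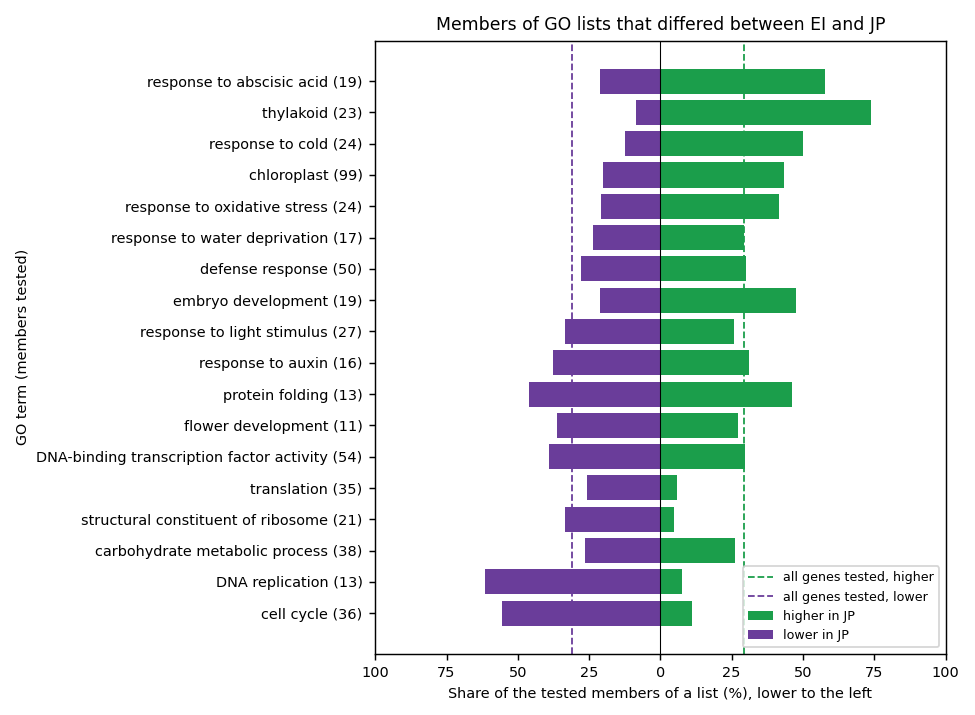
Shares of the tested members of GO lists (horizontal axis, %) that were higher in JP (right) or lower in JP (left), for the lists with at least 10 tested members, with dashed lines at the shares of all genes tested. The thylakoid list reaches 73.9% to the right, and the DNA replication and cell cycle lists reach 61.5% and 55.6% to the left.

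Lists of cell division lay on the side of EI. Of the 36 tested members of the cell cycle list, 20 (55.6%) were lower and 4 (11.1%) higher in JP, with a median log2 fold change of -0.93, or -0.77 relative to all genes. Of the 13 tested members of the DNA replication list, 8 (61.5%) were lower and 1 (7.69%) higher, with a median of -0.70. The largest falls were those of VIT_16s0050g00110, annotated with meiotic recombination, with 66.5, 22.5 and 29.8 normalised CPM in EI and 3.32, 2.88 and 3.32 in JP (log2 fold change -3.64), and of the helicase gene VIT_01s0010g01830, with 21.4, 27.7 and 25.2 in EI and 2.22, 2.21 and 2.15 in JP (-3.49). Against the direction of the list, the GTPase gene VIT_12s0059g02280 rose from 0.929, 1.49 and 1.59 to 47.9, 57.5 and 52.6 normalised CPM (log2 fold change 5.29). The exception in the replication list was VIT_18s0001g01350, annotated as a DNA primase and helicase, which was abundant at both ends with 673 to 771 in EI and 1415 to 3357 in JP, and which was not called with total counts. Leaving out 1 library at a time gave 16 to 23 cell cycle members and 5 to 9 replication members that were lower, the 5 without replicate 3 of EI, and with total counts the 2 medians lay -0.76 and -0.53 from that of all genes. In a single fit of all 40 libraries, 5 replication members were lower with edgeR and 4 with DESeq2. A minimum of 10 CPM in 3 libraries left 4 of them lower. The cell cycle members lower in these fits were 16, 15 and 15.

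For lists of protein synthesis the counts followed the scaling. Of 21 tested members of the list for structural constituents of the ribosome, 7 (33.3%) were lower and 1 (4.76%) higher in JP, and of 35 in the translation list 9 (25.7%) were lower and 2 (5.71%) higher. Over all genes tested 31% were lower and 29.5% higher. With total counts 18 and 27 members were lower, beside 13485 of all 22019 genes tested. After removal of the genes above 2% of a library, a choice made after seeing the data, 15 and 21 were lower, beside 10333 of 22014 genes. Relative to all genes the medians of the 2 lists were -0.17 and -0.13 with TMM factors and -0.15 and -0.12 with total counts. Without replicate 1 of EI 10 and 12 members were lower, and without each of replicates 2 and 3 of EI 5 and 5. The medians were -0.33 and -0.28, beside -0.15 for all genes. The largest falls were those of VIT_18s0001g04760, with 16.8, 28.7 and 26.9 normalised CPM in EI and 9.06, 9.46 and 7.89 in JP (log2 fold change -1.46), and of VIT_14s0171g00220, annotated as a translation release factor of mitochondria (-1.34).

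Of the 19 tested members of the abscisic acid list, 11 (57.9%) were higher and 4 (21.1%) lower in JP, with a median log2 fold change 1.26 above that of all genes, and 11 or 12 were higher when 1 library was left out. With total counts 6 were higher and 7 lower, and the median of 0.13 was again 1.26 above that of all genes. Its largest changes among members of at least 10 normalised CPM were those of CIPK16 and of VIT_12s0034g02240, annotated as a potassium channel, which had 0.542, 1.111 and 0.597 normalised CPM in EI and 73.5, 48.8 and 59.05 in JP (log2 fold change 6.32). The auxin list had 5 of 16 members (31.2%) higher, 6 (37.5%) lower and a median of -0.22, beside 29.5% and 31% over all genes tested. Its largest fall, VIT_00s1291g00010, annotated as a transcription factor of auxin signalling and meristem maintenance, went from 14.1, 18.9 and 17.5 to 0.434, 0.335 and 0.583 normalised CPM (log2 fold change -5.18, SE 0.282, edgeR adjusted p = 1.46e-05). Its largest rise among members of at least 10 normalised CPM was the monooxygenase gene VIT_05s0094g01190 (4.86). The gibberellin, cytokinin and jasmonic acid lists held only 3, 5 and 6 tested members. In the first, VIT_17s0000g06210, annotated with gibberellin signalling and responses to sugars, had 0, 0.0766 and 0.279 normalised CPM in EI and 30.3, 16.5 and 29.2 in JP (log2 fold change 7.69). Of the jasmonic acid list 3 members were higher and none of the 6 was lower in JP.

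The 54 tested genes with DNA-binding transcription factor activity lay close to the shares of all genes, with 16 (29.6%) higher and 21 (38.9%) lower, but they spanned log2 fold changes from -12.30 to 10.88. VIT_06s0004g01800, annotated with meristem and stem cell maintenance, had 105.2, 270.4 and 234.0 normalised CPM in EI and 0, 0.0671 and 0.0448 in JP. From 15659 counts in EI and 2 in JP its level was 5889-fold lower, with a 95% counting interval of 1630 to 48632. In the other direction, VIT_04s0023g01020, annotated with leaf morphogenesis, went from 0.620, 0.919 and 0.676 to 107.3, 70.9 and 99.8 normalised CPM (log2 fold change 6.96, SE 0.287, edgeR adjusted p = 7.97e-06). VIT_01s0011g03720, annotated with the regulation of brassinosteroid synthesis, had no count in EI and 13.6, 6.24 and 11.5 normalised CPM in JP, which was at least 280.1-fold higher. In the flower development list, 3 of 11 members (27.3%) were higher and 4 (36.4%) lower, and its largest change was the transcription factor gene VIT_08s0007g01290, also annotated with meristem maintenance and vascular patterning (log2 fold change 5.80).

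Lists of responses to the environment had calls in both directions, beside 29.5% higher and 31% lower over all genes tested. The cold list had 12 of 24 tested members (50%) higher and 3 (12.5%) lower in JP, with a median log2 fold change of 0.50, and its leading gene was VIT_08s0007g02240, annotated as a cation/proton exchanger of the vacuole, with 0.349, 0.153 and 0.239 normalised CPM in EI and 129.3, 75.5 and 119.1 in JP (log2 fold change 8.74). The oxidative stress list had 10 of 24 (41.7%) higher and 5 (20.8%) lower. Its 2 largest rises, VIT_18s0001g15310 (6.96) and VIT_18s0001g10510 (6.81), are both annotated as thioredoxin reductases of the chloroplast. The defense list had 15 of 50 (30%) higher and 14 (28%) lower, and the water deprivation list 5 (29.4%) and 4 (23.5%) of 17. The list of responses to light had 7 (25.9%) and 9 (33.3%) of 27, and the heat list 1 and 1 of 7. The shares of the defense, water deprivation and light lists lay near those of all genes. So did those of the carbohydrate metabolism list, with 10 of 38 members (26.3%) higher and 10 (26.3%) lower. In it, VIT_05s0020g04510, annotated with ascorbic acid synthesis, rose from 18.6, 23.9 and 20.8 to 307.9, 235.5 and 258.1 normalised CPM (log2 fold change 3.66). The embryo development list had 9 of 19 tested members (47.4%) higher and 4 (21.1%) lower in JP, with a median of -0.02. Its largest rise was VIT_02s0087g00840, an ATP-driven transporter annotated with cotyledon vascular patterning and leaf morphogenesis, which had 2 counts in EI and 809 in JP, a 537.8-fold higher level with a 95% counting interval of 148.4 to 4448. Without replicate 3 of JP the oxidative stress, defense and embryo development lists had 6, 10 and 6 members higher. With total counts the balance turned in the cold list (8 higher, 11 lower), the oxidative stress list (5 and 13) and the embryo development list (4 and 10). In that scaling 4098 of all 22019 genes tested were higher and 13485 lower. Relative to all genes the medians of these 3 lists stayed at 0.66, 0.33 and 0.13 with TMM factors and 0.66, 0.34 and 0.16 with total counts. The protein folding list had 6 members (46.2%) in each direction of 13. The short lists were photosynthesis with 2 of 3 members higher, lignin with 2 of 3 higher, flavonoid biosynthesis with none of 3 called, microtubule-based movement with 1 higher and 2 lower of 5, carbohydrate transport with 2 higher and 3 lower of 6, and circadian rhythm with 2 higher and 1 lower of 5.

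The differences between the ends were looked for in libraries that the comparison does not use, the 3 PG and the 5 EP libraries of the neighbouring stages. Beside EI, PG was also kept on auxin in the dark, and EP like JP on gibberellin in long days. Between PG and EP, 13292 of 21592 genes tested (61.6%) differed in edgeR's quasi-likelihood test, 7396 (34.3%) higher and 5896 (27.3%) lower in EP. Of the 6504 genes higher in JP than in EI, 6094 were tested there, 5877 of these (96.4%) had the same sign and 5070 (83.2%) were called higher in EP. Of the 6826 genes lower in JP, 6606 were tested, 5977 (90.5%) had the same sign and 4478 (67.8%) were called lower. Calls in the opposite direction were 28 and 135. The median change of the tested genes was 2.79 between PG and EP beside 2.31 between EI and JP for the first group, and -1.26 beside -1.28 for the second. With total counts, the median log2 level of all genes relative to EI was -0.27 at PG and -1.34 at EP. PG against EP was not tested with total counts, so that the shared signs do not bear on the choice of scaling.

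Of the 28 called symbols that were tested between PG and EP, 25 were called in the same direction, 3 were not called and none was called in the opposite direction. LHCA2 changed by 11.71 (SE 0.496), CIPK16 by 9.58, THI1-2 by 6.75 and LAR1 by 6.04 from PG to EP. MLO6 changed by -4.24, RRA1 by -2.85 and ICE1 by -2.21. GAI1, which was close to the threshold between EI and JP, changed by 2.12 from PG to EP (SE 0.298, edgeR adjusted p = 0.000208). Without a call were GATA (0.14), GRIP61 (0.71) and PHYE (-0.01).

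Most of the distance between EI and JP was covered late. Over the genes called higher in JP, the median log2 level relative to EI, after subtraction of the median of all genes, was -0.09 at PG and between 0.05 and 0.15 from G1 to T1. It was 0.34 at T2, 0.42 at C1, 0.97 at C2, 1.43 at S, 2.31 at EP and 2.51 at JP. Over the genes called lower, the median was 0.13 at PG, between -0.13 and -0.06 from G1 to T1, -0.18 at T2, -0.33 at C1, -0.47 at C2, -0.78 at S, -1.14 at EP and -1.13 at JP. The genes were chosen on EI and JP, so that the end points are fixed by the choice and none of these levels was tested. The medium lost its hormones from H on, light came at C2 and gibberellin at S.

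**Figure D5:**
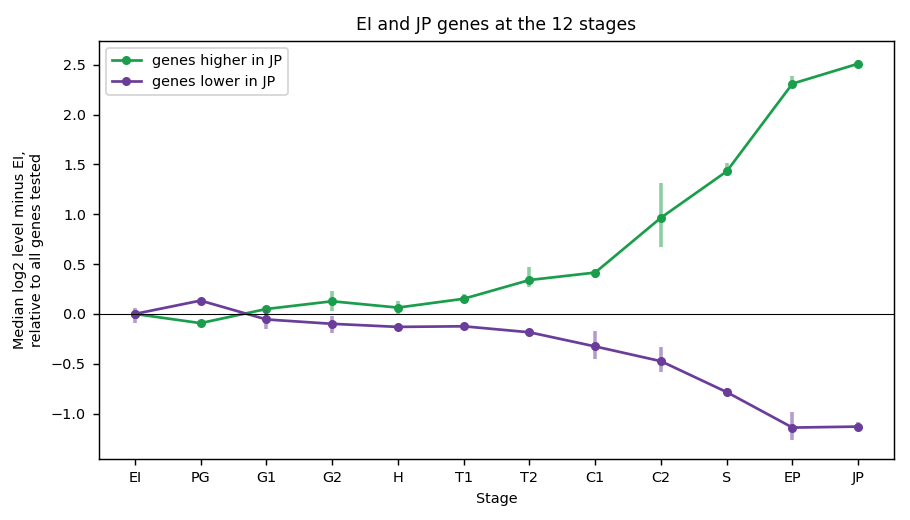
Median log2 level relative to EI, after subtraction of the median of all genes tested (vertical axis), at the 12 stages for the 6504 genes higher and the 6826 genes lower in JP. Points are stage medians and vertical bars span the libraries of a stage, 5 at C2 and EP and 3 elsewhere, and the line of the higher genes stands at 0.34 at T2 and that of the lower genes at -0.33 at C1.

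Single genes took different courses, on levels scaled over all 40 libraries. LHCA2 stayed below 0.7 normalised CPM on average from EI to C1, and was 7.10 ± 5.05 (SD, n = 5) at C2, 73.8 ± 25 (SD, n = 3) at S, 600.3 ± 56.02 (SD, n = 5) at EP and 960.01 ± 404.3 (SD, n = 3) at JP. The libraries of EP and JP overlapped. CIPK16 came later, with at most 0.636 normalised CPM on average up to S, 62.4 ± 46.7 (SD, n = 5) at EP and 125.1 ± 30.8 (SD, n = 3) at JP. VIT_13s0019g02630 held medians of 0.222% to 1.05% of the counts from EI to C2, then 3.53% at S, 19.9% at EP and 25.4% at JP, with a range of 8.98% to 26.4% among the EP libraries.

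Genes that were lower in JP did not share one course. RRA1 was 61.1 ± 13.2 (SD, n = 3) at EI and 72.05 ± 1.28 (SD, n = 3) at PG, dropped to 5.52 ± 3.21 (SD, n = 3) at H, was 31.1 ± 7.54 (SD, n = 3) at T1 and 41.4 ± 15.5 (SD, n = 5) at C2, and ended at 8.58 ± 0.273 (SD, n = 3). MLO6 was highest at G2 with 289.6 ± 46.02 (SD, n = 3) and lowest at EP with 3.57 ± 1.73 (SD, n = 5). RPL22 held between 37.2 and 53.2 normalised CPM on average from EI to T2 and was 25.6 at C1 and between 12.3 and 17.4 from C2 to JP. VIT_01s0011g04570 was 7611 ± 3299 (SD, n = 3) at EI, 13499 ± 1643 (SD, n = 3) at PG and 107.9 ± 57.01 (SD, n = 3) at H, and reached 0.241 ± 0.244 (SD, n = 5) at EP.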

How the data were processed

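Total RNA of 6 libraries, EI and JP replicates 1 to 3, was compared. Groups and replicate numbers come from the sample titles. The authors deposited raw whole-number counts per open reading frame for all 40 libraries, made from paired-end reads of rRNA-depleted RNA that were mapped by BBMap to the grapevine 12X assembly and counted in R. FastQC 0.11.7 and R 4.0.4 stand in the submitters' processing notes. Strand use and the handling of reads matching more than 1 gene are not given in the sources used here, so that counts of close paralogues and overlapping genes are uncertain. The count columns were mapped to samples by title, and 0 columns were left without a sample.

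Counts were tested with edgeR 4.0.16 (limma 3.58.1, R 4.3.3): TMM factors, filterByExpr by stage, quasi-likelihood fit and test, Benjamini-Hochberg adjustment over all genes tested, threshold 0.05. The SE is the absolute log2 fold change over the square root of F. PG against EP was tested in the same way on its own 8 libraries. DESeq2 1.42.0, other scalings, filters and library sets were alternatives. The tests were also run on simulated counts with few changed genes, balanced in direction. These do not cover the shift in RNA composition between EI and JP. Tables and figures were made in Python 3.11.15 with pandas 2.3.3, numpy 2.4.6 and matplotlib 3.10.9. Levels along the stages are log2 CPM with TMM over 40 libraries and a prior count of 2. Library totals ranged from 17246233 to 33783101, and counting intervals and the limit of 3 counts cover counting error only. The paper calls the replicates biological, and whether they are separate cultures is not stated in the labels. The p-values weigh the difference between the stages against the spread between these samples.

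Symbols and GO terms were read from the supplementary tables at hand. Of the identifiers, 0 were matched in the RefSeq gene list, so that no sequence, length or position is given. The named genes were the 45 with a symbol, the 3 largest changes in each direction among called genes with a mean of at least 10 normalised CPM in 1 stage and no overlap between libraries (at most 2 unnamed identifiers per direction), the 5 most abundant genes of each stage, the 2 largest counted in 1 stage only, and up to 2 members of each GO list per direction under the same limits. Members and lists were chosen with earlier results of these data known.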

Additional observations from a re-analysis of the deposited data

Results flagged for a closer look

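Over 12 genes followed along the stages, the 2 stages with 5 libraries gave 24 groups, in which 2 libraries lay apart from the others of their stage by Dixon's criterion. By chance about 1 group in 20 is marked in this way. Replicate 4 of EP held 700 normalised CPM of LHCA2, with the other 4 libraries between 569 and 584. Replicate 3 of C2 held 7.48 normalised CPM of VIT_06s0004g05180, with the other 4 between 0.709 and 2.51. Neither library enters the comparison of EI with JP.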

How the results depend on the processing

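The count of 13330 genes was between 10427 and 15409 when 1 library was left out (without JP replicate 3 and without EI replicate 1), with 5601 to 7975 genes higher, 4826 to 7434 lower and 9191 to 10800 above 2-fold. A minimum of 10 CPM in 3 libraries, which left 12714 genes to test, gave 7127 calls, 3307 higher, 3820 lower and 4540 above 2-fold. A test against a fold change of 2 called 7056 genes, 2614 of them lower. Total counts without TMM gave 4098 higher, 13485 lower and 15508 above 2-fold. Total counts after removal of genes above 2% of a library, a choice made after seeing the data, gave 10333 lower, at a median log2 fold change of -0.58 over all genes. Total counts also moved the medians of the genes higher in JP to -0.054 at PG and 2.35 at EP. Among named genes called in at least 1 of the 2 fits, they reversed the sign of GS (-0.69), GAI1 (-0.088), MDH (-0.41), INT2 (-0.90), CBL02 (-0.63), VIT_12s0057g00400 (-0.11), VIT_19s0014g01520 (-0.55, and -0.0023 after the removal), VIT_16s0039g02170 (-0.31) and VIT_13s0019g04480 (-0.043). Between PG and EP, leaving out 1 library gave 11402 to 13682 calls, with 94.6% to 96.9% and 90.0% to 91.2% of the EI and JP calls of the same sign. For single genes and lists, 1925 of the alternative values kept direction and side of the threshold, 145 lost the call and 21 gained one, and 799 list counts stayed within 1.5 times while 209 did not. Correlations of same-numbered EI and JP libraries were -0.07, -0.14 and 0.10, and those of differently numbered ones lay between -0.12 and 0.12. These values gave no sign of a pairing by number, but with 3 libraries per stage they cannot exclude one. With the replicate number as a block, 12245 genes were called, 6185 higher, 6060 lower and 9587 above 2-fold, and 27 of the 29 called symbols kept their call. Between PG and EP this fit used only replicates 1 to 3 of each stage and called 15151 genes. There 91.4% of the genes higher and 90.4% of those lower in JP had the same sign. The product of total count and TMM factor was lower in every JP library than in every EI library, so that 1 count stands for a higher normalised level in JP.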
